A study of Mus musculus with 60 samples.

Results

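The AP-1 transcription factor family was examined through its 7 Fos and Jun genes, *Fos*, *Fosb*, *Fosl1*, *Fosl2*, *Jun*, *Junb* and *Jund*, which were taken by name from the 46480 genes in the count tables. Of these, 6 passed the count filter and were tested among 17040 genes, and *Fosl1* did not. RNA-seq libraries were made from whole tissue punched from the dorsal and ventral dentate gyrus (DG) of male C57BL6J mice, each library from a pool of mice. The mice were weaned on day 22, then lived for 8 weeks in standard housing (SH, 3 to a cage) or in an enriched environment (EE, a large cage of 12 mice with running wheels and toys changed weekly), and were 80 days old at collection. Crossing the 2 regions with the 2 housings gave 4 groups, and the dorsal and ventral libraries with one number came from the same mice. SH replicate 3 was left out in both regions, which left 4 SH and 5 EE libraries in each region, 18 in all from 9 pools.

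AP-1 is a dimer that binds DNA through a basic region held together by a leucine zipper. Within the family, Jun proteins pair with each other or with Fos proteins, while Fos proteins need a Jun partner. The choice of partners sets how strongly the dimer activates or restrains its target genes. In the DG and elsewhere in the brain, *Fos*, *Fosb* and *Junb* are immediate early genes whose RNA appears within minutes of neuronal activity and decays soon after, *Fosb* also gives a long-lived short protein called deltaFosB, and *Jun* and *Jund* are transcribed at rest as well.

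In the mm10 build (Gencode vM21), the members lie apart on 6 chromosomes. *Fos* lies at chr12:85473890-85477273 on the plus strand, *Fosb* at chr7:19302696-19310051 on the minus strand, *Fosl2* at chr5:32135801-32157842 on the plus strand and *Fosl1* at chr19:5447547-5455946 on the plus strand. *Jun* (chr4:95049034-95052222, minus strand) and *Jund* (chr8:70698949-70700616, plus strand) each consist of 1 exon, and *Junb* lies at chr8:84974484-84978718 on the minus strand. The promoters below are the 250 bases before the RefSeq start (GRCm38.p6, the same build). They are shown for *Fos*, *Fosb* and *Junb*, and for *Jun* as a member that was not called in either EE comparison. The window of *Fosl2*, which was called in both, is not shown. The windows are chr12:85473640-85473889 (plus strand) for *Fos*, chr7:19310046-19310295 (minus strand) for *Fosb*, chr8:84978749-84978998 (minus strand) for *Junb* and chr4:95052223-95052472 (minus strand) for *Jun*. Capitals mark TGACG, the half-site of the cAMP response element.
Fos: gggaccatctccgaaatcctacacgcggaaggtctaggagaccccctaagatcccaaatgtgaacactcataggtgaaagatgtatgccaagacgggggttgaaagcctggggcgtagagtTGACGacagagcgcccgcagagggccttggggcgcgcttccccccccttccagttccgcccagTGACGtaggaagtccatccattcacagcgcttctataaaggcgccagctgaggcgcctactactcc
Fosb: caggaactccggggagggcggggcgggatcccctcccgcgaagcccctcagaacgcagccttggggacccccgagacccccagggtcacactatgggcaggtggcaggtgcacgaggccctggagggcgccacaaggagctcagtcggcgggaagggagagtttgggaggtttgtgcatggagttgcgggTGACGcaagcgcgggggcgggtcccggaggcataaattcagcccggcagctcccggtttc
Junb: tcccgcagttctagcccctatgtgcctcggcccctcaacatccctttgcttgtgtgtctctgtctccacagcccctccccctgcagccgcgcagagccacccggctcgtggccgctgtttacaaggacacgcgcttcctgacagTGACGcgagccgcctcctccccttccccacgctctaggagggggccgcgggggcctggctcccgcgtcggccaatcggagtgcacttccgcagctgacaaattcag
Jun: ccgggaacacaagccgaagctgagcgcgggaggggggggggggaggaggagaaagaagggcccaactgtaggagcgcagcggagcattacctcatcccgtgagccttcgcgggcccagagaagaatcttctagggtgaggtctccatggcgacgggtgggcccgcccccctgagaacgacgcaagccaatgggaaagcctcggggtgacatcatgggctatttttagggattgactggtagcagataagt

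Searched on both strands, TGACG stood in the windows of *Fos* (starting at -129 and -66, with -1 the last base before the start), *Fosb* (-60) and *Junb* (-106), and not in those of *Jun*, *Fosl2* or *Jund*. It was present in 17.8% of 32851 RefSeq promoter windows of this length. The full element TGACGTCA (1.55% of windows), the AP-1 site TGACTCA (4.46%) and the CArG box, which serum response factor binds (1.47%), were in none of the 6 windows that could be matched. A TATAA stood at -33 in *Fos* alone of the 6, and in 22.8% of all windows. The RefSeq and Gencode starts differed by 671 bases for *Fosl2* and 1210 bases for *Jund*, and by 30 bases at most for the other members with a window. The deposited length of *Jund* was 2878 bases in each of the 18 libraries. This is longer than the vM21 locus printed above, so the deposited values rest on another gene model of *Jund*. These matches describe the letters only, and binding was not measured. Only exact letters were searched for, so near matches inside the windows were not counted. The *Jun* window, for example, holds TGACATCA, which has A where the full element TGACGTCA has G. Bases outside the windows were not searched, so an element absent from a window, such as the CArG box, may still lie further upstream.

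The libraries held 22919364 to 28301861 fragments counted on genes. Levels are CPM, counts scaled to library size after TMM normalization, and the fold change of EE over SH is given on the log2 scale. A gene was called when edgeR's quasi-likelihood test gave a Benjamini-Hochberg adjusted p under 0.05 over all 17040 genes and the fold change was at least 20%. The granule neuron markers *Prox1*, *C1ql2*, *Dsp*, *Calb1*, *Neurod1* and *Tdo2* were all present, and their summed level was 829 to 1025 CPM across dorsal libraries but 430 to 638 CPM across ventral ones. The 6 choroid plexus markers summed to 22.5 to 206 CPM and to 382 to 1397 CPM in the same order. As whole tissue was used, fewer cells that express a gene and less RNA in each of them cannot be told apart.

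In both regions the mice kept in EE had more *Fos*, *Fosb*, *Fosl2* and *Junb* RNA than those in SH. In dorsal DG 4 of the 6 tested members were raised and 0 lowered, where 0.387% of all tested genes were raised and 0.246% lowered. In ventral DG the same 4 of 6 were raised and 0 lowered, with 0.182% of all genes raised and 0.0587% lowered. All 4 had every EE library above every SH library in both regions, a separation that 2.21% of tested genes showed in dorsal and 1.28% in ventral DG. The median log2 fold change of the 6 members was 0.35 in dorsal and 0.41 in ventral DG, against medians over all tested genes of -0.0034 and -0.0002. *Fos*, *Fosb* and *Junb* are among the genes that the study picked out from these libraries for their rise, so their direction here is not independent evidence. The dorsal and ventral libraries come from the same pools, so the 2 comparisons are not independent of each other.

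**Figure D1:**
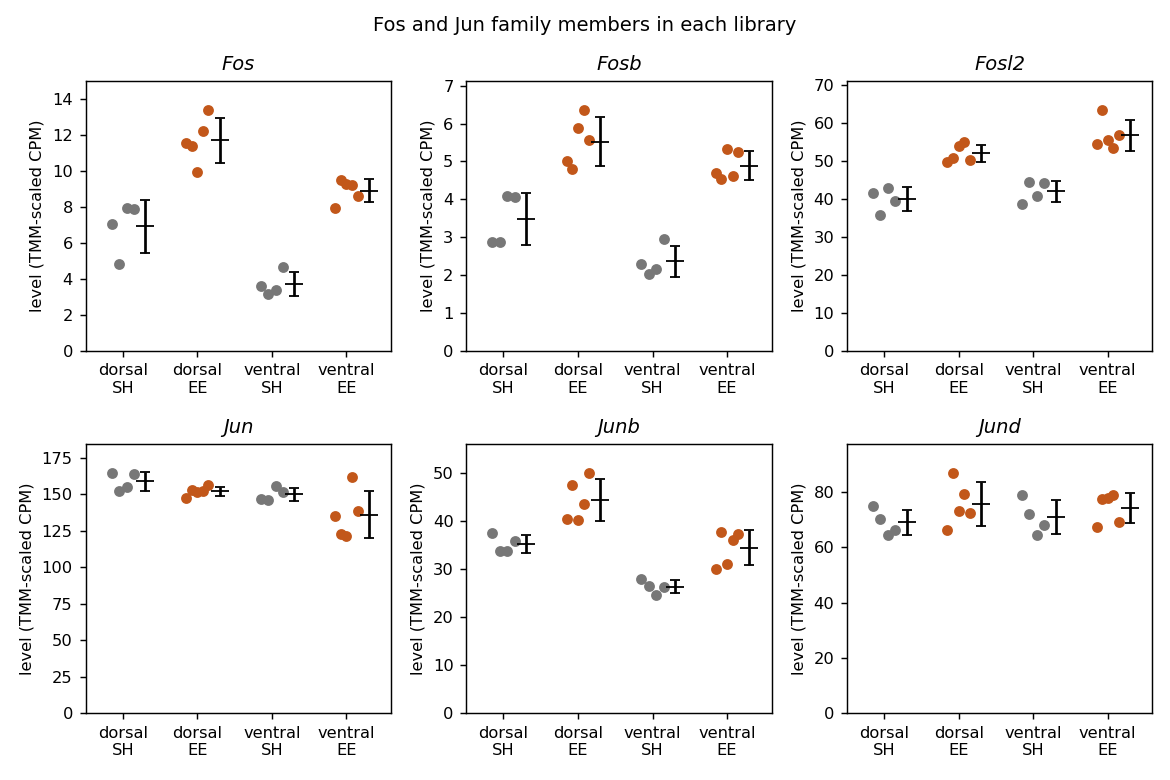
Level of each tested member in each of the 18 libraries (y axis, TMM-scaled CPM, starting at 0) in the 4 groups (x axis). Grey points are SH libraries and orange points EE libraries, and the black mark and bar beside them give the group mean and SD. For *Fos*, *Fosb*, *Fosl2* and *Junb* the EE points lie above all SH points of the same region, and for *Jun* and *Jund* the points of the groups overlap.

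*Fos* encodes the Fos protein that is the usual marker of recently active neurons. In dorsal DG its level was 7.06, 4.81, 7.94 and 7.86 CPM in SH replicates 1, 2, 4 and 5, and 11.6, 11.4, 9.96, 12.2 and 13.4 CPM in EE replicates 1 to 5. The lowest EE library stood 2.02 CPM above the highest SH library, and SH replicate 2 was the lowest of the SH libraries. The means were 6.92 ± 1.46 CPM (SD, n = 4) and 11.7 ± 1.25 CPM (SD, n = 5), a log2 fold change of 0.76 (SE 0.12, edgeR adjusted p = 0.00168). The ventral SH libraries had 3.60, 3.16, 3.40 and 4.64 CPM of *Fos*, and the ventral EE libraries 7.92, 9.51, 9.29, 9.21 and 8.60 CPM. Every ventral EE library again exceeded every SH library, and the EE libraries lay closer together than those of dorsal EE. The ventral means were 3.70 ± 0.652 CPM (SD, n = 4) and 8.90 ± 0.647 CPM (SD, n = 5). The log2 fold change there was 1.26 (SE 0.13, edgeR adjusted p = 2.25e-05), the 17th highest of 17040 genes. These levels rest on 84 to 383 fragments in each library.

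*Fosb* encodes a close relative of Fos, and the counts do not separate its full-length and short forms. Its level in dorsal DG was 2.87, 2.88, 4.10 and 4.06 CPM in SH and 5.01, 4.81, 5.89, 6.36 and 5.56 CPM in EE. The SH libraries fell into a lower pair (replicates 1 and 2) and a higher pair (replicates 4 and 5), both below all EE libraries. EE libraries exceeded them by a log2 fold change of 0.67 (SE 0.13, edgeR adjusted p = 0.00792). Without SH replicate 1 the call was lost, at an adjusted p of 0.0640. Ventral libraries had 2.30, 2.03, 2.15 and 2.96 CPM when from SH and 4.70, 4.53, 5.33, 4.61 and 5.26 CPM when from EE. The groups did not overlap, and the mean rose from 2.36 ± 0.415 CPM (SD, n = 4) to 4.88 ± 0.380 CPM (SD, n = 5). The log2 fold change of 1.05 (SE 0.13, edgeR adjusted p = 0.000291) ranked 29th of 17040 genes. These levels rest on 53 to 159 fragments in a library, the fewest of the 6 tested members.

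*Fosl2*, which encodes the Fos-related antigen Fra-2 and can pair with any Jun protein, changed over a narrow range. Its dorsal SH values were 41.7, 35.8, 43.0 and 39.5 CPM, and its dorsal EE values were 49.8, 51.0, 54.1, 55.0 and 50.4 CPM. The groups were separate, and the log2 fold change was 0.38 (SE 0.06, edgeR adjusted p = 0.00179). Its ventral SH values were 38.7, 44.6, 40.7 and 44.1 CPM, and its ventral EE values 54.5, 63.5, 55.6, 53.4 and 56.9 CPM. EE replicate 2 was the highest of these, and the lowest EE library was still above every SH library. This gave a log2 fold change of 0.43 (SE 0.06, edgeR adjusted p = 0.000847). The relative rise of *Fosl2* was smaller than that of *Fos* in both regions by its fitted value, a difference between genes that was not tested.

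*Fosl1*, which encodes Fra-1, was at 0 counts in 15 of 18 libraries. Single fragments were counted in dorsal SH replicate 1 and ventral EE replicate 3, and 5 fragments in ventral SH replicate 4. A count of 0 allows up to 3 counts, or 0.106 to 0.131 CPM in these libraries, so no comparison could be made at this depth.

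*Junb* encodes the Jun family member that is induced with activity and that can also restrain Jun. Dorsal SH libraries held 37.6, 33.7, 33.8 and 35.8 CPM of it, and dorsal EE libraries 40.4, 47.4, 40.2, 43.6 and 50.1 CPM. The SH libraries were close together and the EE libraries spread upward from just above them. The means were 35.2 ± 1.83 CPM (SD, n = 4) and 44.3 ± 4.35 CPM (SD, n = 5), a log2 fold change of 0.33 (SE 0.07, edgeR adjusted p = 0.0305). Ventral SH libraries held 28.0, 26.5, 24.6 and 26.2 CPM, and ventral EE libraries 30.0, 37.6, 31.0, 36.1 and 37.3 CPM. The ventral EE libraries formed a lower pair (replicates 1 and 3) and a higher group of 3, all above the SH libraries. Here the log2 fold change was 0.38 (SE 0.08, edgeR adjusted p = 0.0268). The *Junb* call depended on single pools. The dorsal call was lost without SH replicate 2, 4 or 5 or EE replicate 2, 4 or 5 (edgeR adjusted p of 0.0168 to 0.130 over the 9 fits that each left out a pool), and the ventral call without SH replicate 2, 4 or 5 or EE replicate 2 or 4 (0.00985 to 0.198). Its fold change stayed positive in all 18 of these values, from 0.28 to 0.37 in dorsal and from 0.35 to 0.43 in ventral DG.

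*Jun* encodes c-Jun, the core partner of the Fos proteins. The 4 dorsal SH libraries had 165, 152, 155 and 164 CPM and the 5 dorsal EE libraries 147, 153, 151, 152 and 156 CPM, so the groups overlapped. Its log2 fold change was -0.06 (95% interval -0.19 to 0.06, edgeR adjusted p = 0.840). The ventral libraries had 147, 146, 156 and 151 CPM for SH and 135, 123, 121, 162 and 139 CPM for EE. Of the ventral EE libraries, 4 were below all SH libraries and replicate 4 was above them. The log2 fold change of -0.14 (95% interval -0.27 to -0.01) had an unadjusted p of 0.0341 by edgeR's test and an adjusted p of 0.610.

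*Jund* encodes JunD, a member known for steady expression. Its level was 64.5 to 75.0 CPM in dorsal SH, with a median of 68.3, and 66.3 to 87.0 CPM in dorsal EE, with a median of 73.2. In ventral DG the range was 64.6 to 78.9 CPM in SH and 67.4 to 79.0 CPM in EE. Groups overlapped in both regions, and the log2 fold changes were 0.13 in dorsal (95% interval -0.02 to 0.28, edgeR adjusted p = 0.652) and 0.06 in ventral DG (-0.09 to 0.21, edgeR adjusted p = 0.876). Both intervals ended below the fitted value of *Junb* in the same region.

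These calls rest on counts. The short RNAs 7SL and 7SK took 49.3 to 63.0% of the TPM of a library, and limma on log2(TPM + 1) called 0 members in either region. With TMM scaling of the TPM, which brought the median of all genes to within 0.0027 of no change, limma called *Fosl2* in dorsal and *Fos* and *Fosl2* in ventral DG, so the dorsal calls of *Fos* and *Junb* and the ventral call of *Junb* were lost there too, and *Fosb* was not tested.

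**Figure D2:**
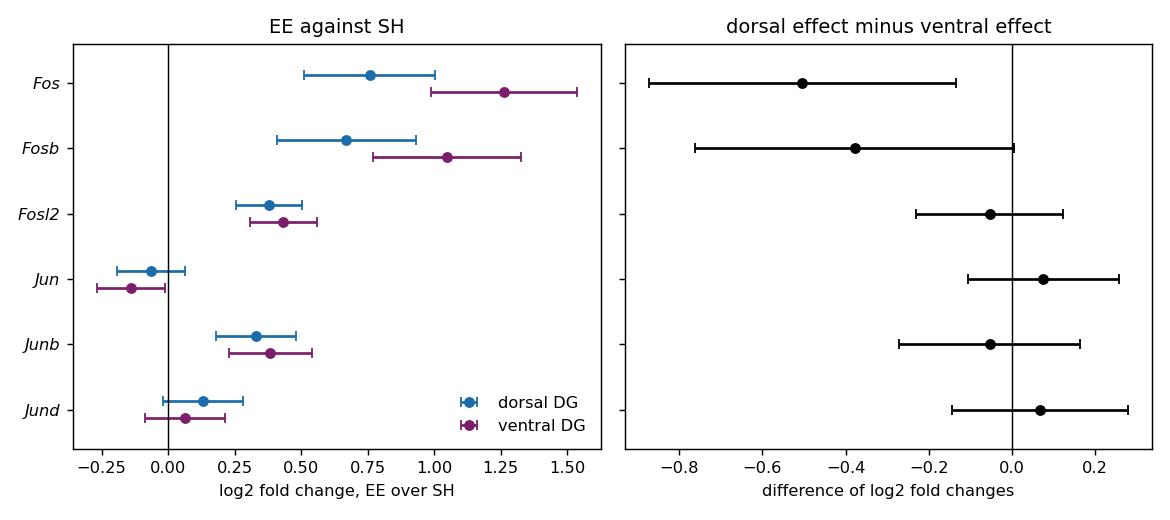
Log2 fold change of EE over SH for each tested member (left, dorsal in blue and ventral in purple) and the dorsal minus the ventral fold change (right), with points for the fitted values and bars for 95% intervals. *Fos* and *Fosb* have the highest values in both regions, *Jun* and *Jund* have dorsal intervals that include 0, and on the right the interval of *Fos* alone excludes 0.

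To ask whether EE acted on the family differently in the 2 regions, the dorsal effect was set against the ventral effect as an interaction. None of the 6 tested members was called, and edgeR called 1 of 17040 genes (0.00587%), with 553 genes at an unadjusted p under 0.05 (3.25%). Of the members, *Fos* alone was among the latter, and DESeq2 also called 0 members. The log2 fold change of *Fos* was lower in dorsal than in ventral DG by its fitted value, with a difference of -0.50 (SE 0.18, 95% interval -0.87 to -0.13), and its unadjusted p of 0.00984 by edgeR's test became an adjusted p of 1.00. For *Fosb* the difference was -0.38 (95% interval -0.76 to 0.01). The differences of *Fosl2* (-0.05), *Junb* (-0.05), *Jun* (0.08) and *Jund* (0.07) were smaller, with intervals that spanned 0. The larger ventral fold of *Fos* went with a lower ventral SH level, of 3.70 CPM against 6.92 CPM in dorsal SH. On the linear scale the EE mean exceeded the SH mean by 4.78 CPM in the dorsal and by 5.20 CPM in the ventral libraries. These linear differences are a description and were not tested.

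Dorsal and ventral DG were then compared within each housing. *Fos*, *Fosb* and *Junb* were higher in dorsal than in ventral DG in SH, 3 of 6 tested members, where 14.1% of all tested genes passed in this direction and 14.2% in the opposite one. In EE 2 of 6, *Fos* and *Junb*, were higher in dorsal DG, against 14.1% of all genes in this direction and 15.8% in the opposite one. No member was higher in ventral DG. The SH comparison uses the same SH libraries as the EE comparisons above.

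In SH the log2 difference of dorsal over ventral was 0.90 for *Fos* (SE 0.14, edgeR adjusted p = 2.6e-05), with dorsal libraries from 4.81 CPM upward and ventral libraries up to 4.64 CPM. In *Junb* the difference was 0.42 (SE 0.08, edgeR adjusted p = 0.000208), and the lowest dorsal library (33.7 CPM) exceeded the highest ventral one (28.0 CPM). For *Fosb* it was 0.55 (SE 0.15, edgeR adjusted p = 0.00432), but dorsal replicates 1 and 2 (2.87 and 2.88 CPM) lay below ventral replicate 5 (2.96 CPM), and the call was lost without SH replicate 4 (adjusted p = 0.0514). The separate ranges of *Fos* and *Junb* compare with 19.5% of tested genes that were separate in this direction. In EE the log2 difference was 0.40 for *Fos* (SE 0.11, edgeR adjusted p = 0.00439) and 0.37 for *Junb* (SE 0.07, edgeR adjusted p = 0.000165), and both had dorsal and ventral ranges that did not overlap, which held for 14.5% of tested genes in this direction. In EE *Fosb* differed by 0.17 (95% interval -0.06 to 0.41, edgeR adjusted p = 0.212).

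Within pools the order of the regions was uniform for these 3 genes. *Fos*, *Fosb* and *Junb* were each higher in dorsal than in ventral DG in 9 of 9 pools, as were 20% of all tested genes. In SH replicate 3, which was left out, *Fosb* had the opposite order, with a ventral level of 2.59 CPM above the dorsal 2.49 CPM. *Jun* was higher in dorsal DG in 7 of 9 pools, and *Fosl2* and *Jund* in 3 of 9. Over both housings *Fos* (0.65), *Junb* (0.39) and *Fosb* (0.36) were called as higher in dorsal DG on the log2 scale, 3 of 6 members against 15.9% of all genes, and 0 of 6 were called as higher in ventral DG, against 16.8%. *Jun* (0.12, edgeR adjusted p = 0.0211) was under the 20% limit. *Fosl2* leaned the other way, at -0.10 (edgeR adjusted p = 0.0511). Markers of several cell types moved with this result. Of 6 granule neuron markers, 5 were higher in dorsal DG over both housings, as were 3 of 5 CA pyramidal markers and 2 of 5 habenula and thalamus markers. All 6 choroid plexus markers and 3 of 5 interneuron markers were higher in ventral DG, as was 1 of 5 in each of the astrocyte, microglia, CA pyramidal and habenula and thalamus lists. The other interneuron markers, *Gad1* (0.21) and *Gad2* (0.11), had dorsal values above 0 and were not called, and the summed level of the 5 overlapped between regions, at 401 to 494 CPM in dorsal EE and 435 to 514 CPM in ventral EE. With 1 pool left out, the call of the granule neuron marker *Neurod1* over both housings held in 6 of 9 fits. The call of the astrocyte marker *Slc1a3* held in 5 of 9 fits, and that of the microglia marker *Aif1* in 5 of 9. The part of these cell types in the region differences of the family was not tested. In the EE comparisons edgeR called none of the 47 markers of 9 cell types in either region, with 11 at an unadjusted p under 0.05 in dorsal (23.4%, against 8.81% of all genes) and 8 in ventral DG (17.0%, against 7.58%). Of the 11, 5 had higher and 6 lower values in EE, and of the 8, 5 had higher and 3 lower values. The granule neuron list had median log2 fold changes of -0.17 in both regions, and *Dsp* and *Tdo2* were among the lower markers in both. The microglia marker *P2ry12* had an adjusted p of 0.0441 by edgeR in dorsal DG at -0.23, under the 20% limit. The part of these markers in the EE differences of the family was not tested. DESeq2 called *Tac2*, a habenula marker, as raised in dorsal and *Tdo2*, a granule neuron marker, as lowered in ventral DG.

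**Figure D3:**
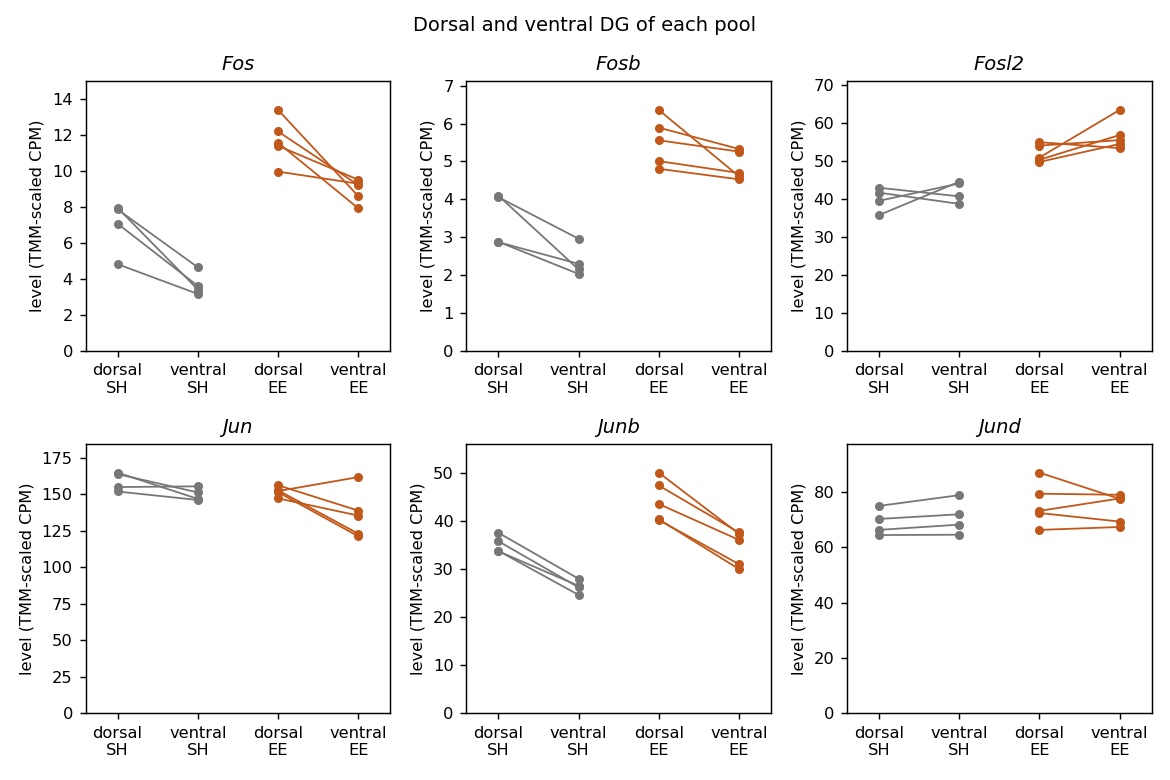
Level of each tested member (y axis, TMM-scaled CPM, starting at 0) in the dorsal and ventral libraries of each pool, joined by a line, with SH pools in grey and EE pools in orange. Every line falls from dorsal to ventral for *Fos*, *Fosb* and *Junb*, while those of *Fosl2* and *Jund* run in both directions.

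Because Fos proteins pair with Jun proteins, the members were also compared with each other within libraries. TPM corrects for transcript length, and the share of each gene in the summed TPM of the 7 genes does not depend on the scaling of a library. In dorsal SH *Jun* held 48.2 ± 0.599% of family transcripts (SD, n = 4), *Jund* 21.8 ± 1.38%, *Junb* 19.5 ± 0.320%, *Fosl2* 5.80 ± 0.379%, *Fos* 3.96 ± 1.17% and *Fosb* 0.809 ± 0.167%. No neighbours in this order overlapped over the 4 libraries. The same order held for the mean shares in dorsal EE except that *Junb* (22.3 ± 1.28%) and *Jund* (21.9 ± 1.51%) stood side by side, within their spread. In ventral DG *Jund* (24.6 ± 1.81% in SH) stood above *Junb* (15.9 ± 0.564%), and the rest kept their order. With counts divided by a fixed length for each gene instead of TPM, *Jund* (23.2 ± 1.65%) stood above *Junb* (21.3 ± 1.29%) in dorsal EE too. Their ranges overlapped.

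Jun genes together made up most of the family in every group. The share of *Jun* itself was 42.2 ± 1.49% in dorsal EE (SD, n = 5), 50.1 ± 1.98% in ventral SH (SD, n = 4) and 42.2 ± 3.17% in ventral EE (SD, n = 5). It was lower in every EE library than in every SH library of the same region, with dorsal ranges of 40.5 to 43.9% and 47.5 to 48.7%, and ventral ranges of 38.4 to 45.8% and 48.1 to 52.8%. The Fos genes together held 10.6 ± 1.62% of family transcripts in dorsal SH and 13.6 ± 0.587% in dorsal EE, and 9.36 ± 0.746% in ventral SH and 14.4 ± 1.44% in ventral EE. *Junb* amounted to 40.4 ± 0.902% of the *Jun* level in dorsal SH and 53.0 ± 4.17% in dorsal EE. In ventral DG the same ratio was 31.8 ± 2.35% in SH and 46.2 ± 6.18% in EE. *Fos* amounted to 8.22 ± 2.42% and 12.6 ± 1.49% of *Jun* in dorsal SH and EE, and to 3.96 ± 0.683% and 11.0 ± 2.33% in ventral SH and EE. The dorsal ranges of this last ratio overlapped in TPM, with EE replicate 3 just below SH replicate 4, both at 10.2%. These shares restate the tested rises and have no test of their own. The length that RSEM assigned to *Fos* varied with its isoforms from 1635 to 2108 bases between libraries and enters its TPM.

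**Figure D4:**
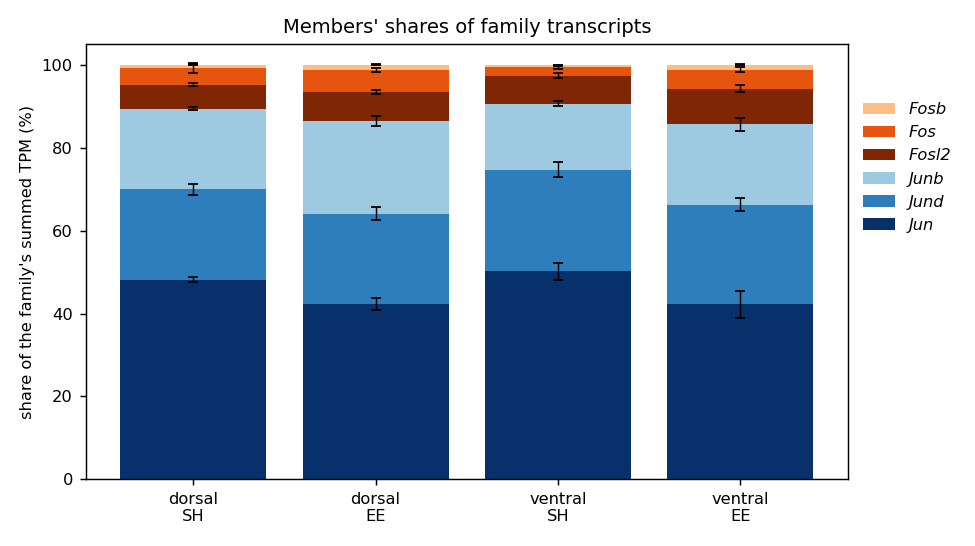
Mean share of each member in the summed TPM of the family (y axis, percent) in the 4 groups, with the Jun genes in blue and the Fos genes in brown and orange, and bars for the SD of each share. The lowest block, *Jun*, is smaller in EE than in SH in both regions, at 42.2% against 48.2% in dorsal and 42.2% against 50.1% in ventral DG. *Fosl1*, at 0 in most libraries, is not drawn.

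Members were compared in how they varied over the 18 libraries, with each region centred on its own mean and log2 CPM correlated with that of 14104 genes of at least 1 CPM. These correlations describe 9 pools that share a housing difference, and have no test. *Fos* and *Fosb* were each other's nearest gene of all (r = 0.951), and the nearest genes to *Fosl2* were *Fos* (r = 0.912) and *Fosb* (r = 0.895). *Junb* had r = 0.854 with *Fos*, its 4th nearest gene. *Jun* had negative values with all other members, from -0.18 with *Jund* to -0.56 with *Fosl2*.

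Outside the family, the nearest genes to *Fos* were *Tmc6* (r = 0.928), *Lrg1* (r = 0.921) and *Npas4* (r = 0.919), which encodes an activity-dependent transcription factor. Those of *Fosb* were *Nptx2* (r = 0.941), which encodes a pentraxin secreted at excitatory synapses, the immediate early gene *Nr4a1* (r = 0.898) and the dopamine D1 receptor gene *Drd1* (r = 0.889). *Fosl2* was nearest to *Sik1* (r = 0.895), a salt-inducible kinase gene, *Drd1* (r = 0.891) and *Gimap6* (r = 0.890), and *Junb* to *Drd1* (r = 0.886), *Npas4* (r = 0.876) and *Gimap6* (r = 0.857). *Jun* went with other genes, *Map2k1* (r = 0.932), a MAP kinase kinase gene, *Jph1* (r = 0.929) and *Mcm6* (r = 0.908). *Jund* went with *Zfp771* (r = 0.872), *Endog* (r = 0.853) and *Hist1h3a* (r = 0.851).

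The partners, upstream genes and targets of AP-1 were described by lists. Of 8 other bZIP genes whose proteins can pair with Jun or Fos, 6 were tested, and *Batf3* alone rose with EE in dorsal DG, from 0.893 ± 0.127 CPM (SD, n = 4) to 1.68 ± 0.343 CPM (SD, n = 5), with a log2 fold change of 0.92 (SE 0.19, edgeR adjusted p = 0.0185). The call was lost without SH replicate 1, 4 or 5 or EE replicate 5 (edgeR adjusted p of 0.0233 to 0.0988 over 9 fits). Of all tested genes, 0.387% were raised in dorsal DG. *Atf3* had a dorsal log2 fold change of 0.62 with an unadjusted p of 0.00221 by edgeR's test and an adjusted p of 0.146, and *Atf4* one of 0.11 with an adjusted p of 0.531. In ventral DG 0 of 6 were called by edgeR or DESeq2, 1 had an unadjusted p under 0.05, and that was *Atf3* at a log2 fold change of 0.69 (SE 0.25, edgeR adjusted p = 0.445). In the region comparison over both housings 4 of 6 were higher in dorsal DG, against 15.9% of all tested genes, *Batf3* (1.78), *Atf3* (1.60), *Jdp2* (0.98) and *Atf7* (0.34).

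The genes of the induction pathway, which include serum response factor and its partners, CREB and the MAP kinases that phosphorylate them, were also listed. Of 22, 0 were called with EE in either region by edgeR or DESeq2, with median log2 fold changes of -0.06 and -0.03, where under 1% of all genes were called. At an unadjusted p under 0.05, a limit that 8.81% of all genes passed in dorsal and 7.58% in ventral DG, there were *Mapk3* and *Rps6ka5* in dorsal and *Map2k1* in ventral DG, with fitted values of -0.12, -0.13 and -0.14. Between regions, 4 of 22 were higher in dorsal DG over both housings, a share close to the 15.9% of all genes. They were *Mkl2* (0.83), *Elk1* (0.45), *Mkl1* (0.41) and *Crtc1* (0.31), of which the first 3 encode coactivators or partners of serum response factor and the last a coactivator of CREB. Among 9 genes of turnover and inhibition, which act on Jun protein or on AU-rich messenger RNA, 0 were called with EE in either region by edgeR or DESeq2, and 0 had an unadjusted p under 0.05. The smallest p values were those of *Rfwd2* in dorsal (0.07, edgeR adjusted p = 0.723) and *Zfp36l1* in ventral DG (0.13, edgeR adjusted p = 0.800). *Elavl1*, which encodes an RNA-stabilising protein, was higher in dorsal DG (0.32).

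Of 20 genes known as AP-1 targets in various tissues, 16 were tested, and *Penk*, which encodes the enkephalin precursor, was the 1 raised in each region. Its level was 15.1 ± 2.21 CPM in dorsal SH (SD, n = 4) and 38.3 ± 4.50 CPM in dorsal EE (SD, n = 5), a log2 fold change of 1.35 (SE 0.13, edgeR adjusted p = 4.88e-06). In ventral DG it stood at 8.30 ± 0.701 CPM in SH (SD, n = 4) and 17.0 ± 4.50 CPM in EE (SD, n = 5), a log2 fold change of 1.03 (SE 0.15, edgeR adjusted p = 0.00142). The medians of the 16 were 0.02 and 0.11, and 0.387% of all tested genes were raised in dorsal and 0.182% in ventral DG. DESeq2 called *Penk* in both regions and also *Vgf* as raised in ventral DG. Between regions, *Penk* was higher in dorsal DG (1.01), and 7 of 16 were higher in ventral DG, against 16.8% of all genes, among them the neuropeptide genes *Nts* (-2.65), *Gal* (-1.55) and *Sst* (-0.93). The tyrosine hydroxylase gene *Th* was also called (-2.24), but was near the limit of detection, with 0.0405 to 1.58 CPM and a median of 0.127 CPM in ventral SH, where 1 library held most of it, and it passed the count filter in 7 of the 9 fits that each left out a pool. *Sst* is also 1 of the 5 interneuron markers.

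Among 17 other immediate early genes, 2 rose with EE in dorsal and 5 in ventral DG, and 0 fell in either. Of all tested genes, 0.387% were raised in dorsal and 0.182% in ventral DG. *Npas4* rose by 1.27 on the log2 scale in dorsal (SE 0.12, edgeR adjusted p = 1.82e-06) and 1.65 in ventral DG (SE 0.15, edgeR adjusted p = 3.01e-06). *Arc*, which encodes a protein of the postsynapse, rose by 0.41 in dorsal (SE 0.09, edgeR adjusted p = 0.0388) and 0.53 in ventral DG (SE 0.09, edgeR adjusted p = 0.00993). In ventral DG *Nr4a1* (0.61), *Nr4a2* (0.57) and the MAP kinase phosphatase gene *Dusp1* (0.52) were also called. With 1 pool left out, the dorsal call of *Arc* held in 2 of 9 fits (without SH replicate 4 or EE replicate 2), its ventral call in 8 (lost without SH replicate 2), and the ventral call of *Nr4a1* in 2 (without SH replicate 5 or EE replicate 4). *Npas4*, *Arc*, *Gadd45b*, *Penk* and *Drd1* are further genes that the study picked from these libraries. *Gadd45b* had log2 fold changes of 0.39 and 0.40 with edgeR adjusted p of 0.0521 and 0.0504, and *Egr2*, at 0.97 and 1.35, had 0.142 and 0.107. DESeq2 called 3 of the 17 as raised in dorsal and 7 in ventral DG. Beyond the edgeR calls these were *Gadd45b* in both regions and *Egr2* in ventral DG. The median of the 17 was 0.22 in dorsal and 0.40 in ventral DG. None of the 17 was called in the interaction, and the difference in the number of calls between the regions was not tested.

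**Figure D5:**
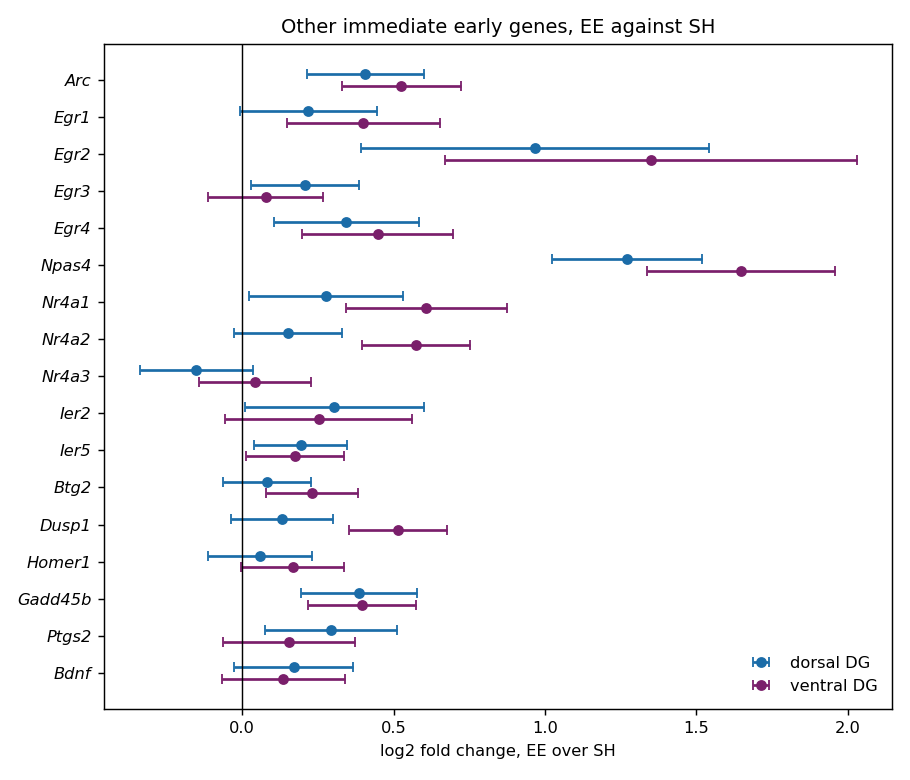
Log2 fold change of EE over SH for the 17 other immediate early genes, dorsal DG in blue and ventral DG in purple, with points for fitted values and bars for 95% intervals. *Npas4* has the highest fold change of the called genes in both regions, at 1.27 and 1.65, and *Egr2* has the widest intervals.

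Over both housings 10 of the 17 were higher in dorsal DG (15.9% of all genes) and 2, *Nr4a3* (-0.28) and *Gadd45b* (-0.45), higher in ventral DG (16.8% of all genes). The *Nr4a3* call was lost without SH replicate 2 or EE replicate 5, and the dorsal call of *Egr4* without SH replicate 4. The largest dorsal differences were those of *Npas4* (1.11), *Egr1* (0.98), *Ier5* (0.78) and *Egr2* (0.75). *Fos* (0.65), *Junb* (0.39) and *Fosb* (0.36) lay within the range of these 10 genes.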

How the data were processed

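RNA-seq of dorsal and ventral DG was analysed in 18 libraries from 9 pools, grouped by the labels. The DNA methylation and hydroxymethylation samples were not analysed here. SH replicate 3 was left out because the study excluded an SH sample for *Xist*, and this replicate had 789 and 308 *Xist* counts against at most 16 in the others. The authors trimmed paired reads with Trim Galore 0.4.0 and aligned them to mm10 with STAR 2.5.1b (versions from the submitters' processing notes), and deposited the count of uniquely mapped fragments per gene for each strand, without normalization. The expected count, TPM and FPKM of each gene were deposited by the authors as made by RSEM 1.2.30, the last 2 scaled for transcript length. Counts of the reverse strand were used. Summary lines that name no gene (unmapped, multimapping, no feature, ambiguous) were left out, and equalled 32.6 to 40.9% of all fragments.
A gene entered the test if at least 2 libraries had over 10 counts of it. The test was that of edgeR 4.0.16 (R 4.3.3) in one quasi-likelihood fit of the 4 groups, with TMM normalization and Benjamini-Hochberg adjustment. Standard errors came from the fold change and its F statistic. The 7 members, the gene lists and the alternatives were chosen with earlier results of these data known. Other genes were named by a rule, which took for each tested member the 3 genes outside the family with the highest correlation, and from each list the called genes (the 4 largest where over 4 were called) or, where none was called, the gene of the smallest p. *Batf*, *Batf2*, *Il6*, *Mmp13*, *Mmp3* and *Timp1* did not pass the filter. Outside this rule, *Gadd45b*, *Egr2*, *Dusp1*, *Vgf*, *Atf3*, *Atf4*, *Mapk3*, *P2ry12*, *Dsp*, *Tac2* and *Tdo2* in the EE comparisons were named after their values were seen. So were *Nr4a3*, *Gadd45b*, *Gad1*, *Gad2*, *Sst*, *Neurod1*, *Slc1a3*, *Aif1* and *Egr4* between regions. *Mkl1*, *Mkl2* and *Rfwd2* were matched under their newer names *Mrtfa*, *Mrtfb* and *Cop1*.
Dorsal and ventral libraries of one number come from the same mice. The region and interaction tests reported here left this pairing out. A fit of them with the pool as the block was run as an alternative, under the name replicate block. Same-numbered SH and EE libraries come from different mice. Deviations of paired regions correlated at 0.0827 on average over 9 pools. Replicates were not identical (0 of 32 pairs). Promoter windows of 250 bases came from RefSeq, with an entry for 6 of 7 members. Alternatives used limma 3.58.1 and DESeq2 1.42.0. Depth limits the precision of *Fos* and *Fosb* most, and the limit set by 3 counts covers counting error only.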

Additional observations from a re-analysis of the deposited data

Results flagged for a closer look

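At the *Fosl1* gene, 65 to 107 fragments in each library lay on the strand opposite to the gene, where 0 to 5 lay on its own strand. The signal was noticed because the strand-specific counts used for the comparisons leave it out, and 2767 bases of the *Fosl1* gene overlap *Ccdc85b*, which is annotated on the opposite strand. At *Jund*, 214 to 307 fragments lay on the opposite strand, beside 1510 to 2234 on its own. There 919 bases overlap the antisense gene *Gm11175*. Unstranded counts of *Jund* were lower than its own-strand counts, at 1105 to 1544. The same held for *Jun*, at 2394 to 4052 unstranded and 2718 to 4599 on its own strand. There 689 bases overlap the antisense gene *Junos*. Over 24 combinations of a tested member and a group, 0 libraries stood apart from their group by Dixon's test.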

How the results depend on the processing

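The calls of the 4 EE-raised members and the region calls of *Fos*, *Fosb* and *Junb* were the same under RLE size factors, DESeq2, both other count filters, all 20 samples, unstranded counts, RSEM expected counts and the replicate block. Each fold change of a called member kept its sign under every alternative run.

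With the replicate block, all genes called were 172 in dorsal and 87 in ventral DG for EE and 2 for the interaction, against 108, 41 and 1 without it. Same-numbered SH and EE libraries come from different mice, but their deviations correlated at 0.126 on average over 8 pairs, 7 of them over 0.1. The values ran from 0.0815 to 0.175, and the mean for paired regions of 1 pool was 0.0827. The labels do not say what else libraries of one number share, and this was not tested. The block changed no call of a member. DESeq2 called 75 genes and the fit with no count filter 78 for EE in ventral DG. The stricter filter called 0 genes in the interaction. With no fold change limit, 7924 genes against 5086 were called between regions in EE and 9949 against 5573 over both housings.

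TPM gave fewer calls. Limma on log2(TPM + 1) and on log2(TPM + 0.1) called 0 members for EE in dorsal DG, 0 in ventral DG, and 0 between regions in EE. They called 1 and 2 genes for EE in dorsal DG, 0 and 0 in ventral DG, and 0 and 0 in the interaction. Between regions they called 1136 and 1026 genes in SH against 4821, 1055 and 1061 in EE, and 3232 and 3426 over both housings. The median over all genes moved to -0.21 and -0.25 for EE in dorsal DG, -0.14 and -0.17 in ventral DG, 0.18 and 0.22 between regions in SH and 0.11 and 0.14 in EE, so all signs in TPM are relative to that shift. Of genes called between regions, 83.4% and 82.0% were higher in dorsal DG in SH, 70.0% and 69.2% in EE and 85.8% and 84.7% over both housings, against 49.7%, 47.1% and 48.7% with counts. Limma on TMM-scaled TPM, added after seeing the data, had medians of at most 0.0027 in size and called 1 member (*Fosl2*) and 42 genes for EE in dorsal DG, 2 members (*Fos* and *Fosl2*) and 23 genes in ventral DG, 1 member between regions in EE, 3433 genes over both housings and 0 in the interaction. *Fosb* did not pass the TPM filter. Shares in the family moved by over the SD of their group in 3 cases, all with counts divided by a fixed length. *Junb* then held 18.5% in dorsal SH and 15.1% in ventral SH, and *Jund* held 23.2% in dorsal SH.

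Signs reversed only where the member was not called in that comparison, which includes the region and interaction values of *Fosl2*. In the order log2(TPM + 1), log2(TPM + 0.1), *Jund* had -0.12 and -0.13 for EE in dorsal DG, -0.085 and -0.095 in ventral DG, 0.19 and 0.20 between regions in SH, 0.17 and 0.18 over both housings and -0.0329 and -0.0308 in the interaction. *Fosl2* had 0.12 and 0.15 between regions in SH, 0.015 and 0.021 in EE and 0.069 and 0.086 over both housings, and *Jun* -0.0070 and -0.0019 in the interaction. With all 20 samples *Jund* had 0.0097 between regions in SH and 0.019 over both housings, and *Fosl2* 0.025 in the interaction. Over both housings *Jund* had 0.0025 with unstranded counts and 0.0023 with TMM-scaled TPM.

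Leaving out 1 pool gave 70 to 109 genes for EE in dorsal DG, 18 to 50 in ventral DG and 0 to 0 in the interaction. The lowest counts came without SH replicate 4, and for EE in ventral DG counts were also under the main one by over 1.5 times without SH replicate 2 (24) and EE replicate 3 (26). Member values that reversed were *Fosl2* between regions in SH (-0.13 to 0.0069) and in the interaction (-0.13 to 0.0084), and *Jund* in EE (-0.015 to 0.057) and over both housings (-0.029 to 0.0089). The lost calls of *Junb* and *Fosb* stand in the report. So do those of list genes called for EE or over both housings, from fits added after seeing the data. Causes were not tested. Depth limits *Fosl1*, and *Fos* and *Fosb* rest on few fragments.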

Other observations

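In SH replicate 3, the pool left out of all comparisons, members were measured with scaling over all 20 libraries. *Fos* was at 7.15 CPM in its dorsal and 3.29 CPM in its ventral library, *Fosb* at 2.49 and 2.59 CPM, *Fosl2* at 37.4 and 51.1 CPM, *Junb* at 39.1 and 26.8 CPM, *Jun* at 158 and 147 CPM and *Jund* at 82.2 and 72.0 CPM. The dorsal *Jund* and *Junb* values and the ventral *Fosl2* value were above those of the other 4 SH libraries of the region, and the dorsal *Fosb* value was below them. The other SH libraries were scaled over 18 libraries, so small differences carry that change of scale.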
